A study of Homo sapiens
Mus musculus with 3 samples.

Results

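EL4 wells with a high share of mitochondrial reads were compared with EL4 wells with a low share. EL4 cells derive from a T-cell lymphoma of the mouse. Wells with at least 1000 reads, at least 200 genes and less than 10% human reads were called EL4 when reads of 5 T-cell genes came to at least 3 and to at least 3 times the reads of 5 B-cell genes. In each library the wells were ordered by the share of mouse reads on 8 mitochondrial genes, and the upper 25% (high wells) and lower 25% (low wells) were taken. This gave 347 high and 347 low wells among 1392 EL4 wells, out of 4360 wells that passed the read and gene filters.

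Transcriptomes had been measured in nanowells of the ICELL8 cx, which images a chip and processes wells that hold a single cell. Each library was made from equal parts of 4 untreated lymphocyte lines: Jurkat and TALL-104 (human T cells), EL4, and IVA12 (mouse B-lineage hybridoma). The official 3'DE protocol (3' differential expression) was used for 2 libraries, and 1 library was made with the modified 3'DE-UMI protocol, which allows unique molecular identifiers (UMIs) to be counted. The libraries are called 3'DE 1, 3'DE 2 and 3'DE-UMI, and sets of values without names are in this order. High and low wells shared every culture and preparation step of their library.

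Mitochondria carry their own small genome, whose mRNAs encode core subunits of the respiratory chain and of ATP synthase. The other subunits, and the proteins that copy and translate the mitochondrial genome, are encoded in the nucleus. In single-cell data the mitochondrial share is also widely used as a mark of cell quality, because mRNA of the cytoplasm can leak from a damaged cell while mitochondria stay inside.

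EL4 wells numbered 466 in 3'DE 1, 493 in 3'DE 2 and 433 in 3'DE-UMI. Their median depths were 28622.5, 38112 and 31694 reads. The same filters with the T and B rule turned round gave 440, 229 and 198 IVA12 wells, and 16, 51 and 69 wells met neither rule. The libraries shared well barcodes: 529 between both 3'DE libraries, 539 between 3'DE 1 and 3'DE-UMI, and 469 between 3'DE 2 and 3'DE-UMI. Of these, 94, 83 and 88 were EL4 wells in both libraries, and 8, 3 and 5 were high wells in both. Spearman's rho of the share over those wells was 0.04, 0.08 and -0.14.

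The wells were checked by their gate genes. The 5 T-cell genes summed to between 2609 and 3159 CPM (reads scaled to a fixed total of the other mouse genes) in the high and low wells. The 5 B-cell genes summed to between 3.65 and 48.2 CPM, and 1 of them, ENSMUSG00000003379, was at 0 or 1 read in every sum. In 3'DE 1 the T-cell genes summed to 2775 CPM in low and 2609 CPM in high wells. They were at 3133 and 3159 CPM in 3'DE 2 and at 2735 and 3041 CPM in 3'DE-UMI. These values are a description, since the genes chose the wells. The deposited tables give Ensembl identifiers and pair none of them with a gene symbol, so genes are given by identifier only.

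The median mitochondrial share of EL4 wells was 1.30% in 3'DE 1, 1.74% in 3'DE 2 and 1.38% in 3'DE-UMI. The range was 0.0423% to 11.6% in 3'DE 1, 0.507% to 13.8% in 3'DE 2 and 0.272% to 5.41% in 3'DE-UMI. The interquartile range was 0.454, 0.822 and 0.775 percentage points. Most wells lay close to the median, with a thin tail upwards. A share of 5% or more was reached by 7, 12 and 2 wells, and 10% or more by 2, 3 and 0 wells. IVA12 wells of the same libraries had median shares of 1.71%, 2.31% and 2.38%.

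The high and low wells follow from this order and are given with no test. The median share was 1.02% in low and 1.84% in high wells of 3'DE 1, 1.19% and 2.68% in 3'DE 2, and 0.865% and 2.20% in 3'DE-UMI. The lower limit lay between 1.1211% and 1.12228% in 3'DE 1, between 1.35435% and 1.35595% in 3'DE 2, and between 1.05483% and 1.06119% in 3'DE-UMI. The upper limit lay between 1.57787% and 1.57837%, between 2.17826% and 2.1819%, and between 1.83652% and 1.83781%. Wells at the limits were thus nearly alike, and both groups are ends of 1 continuous distribution.

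**Figure D1:**
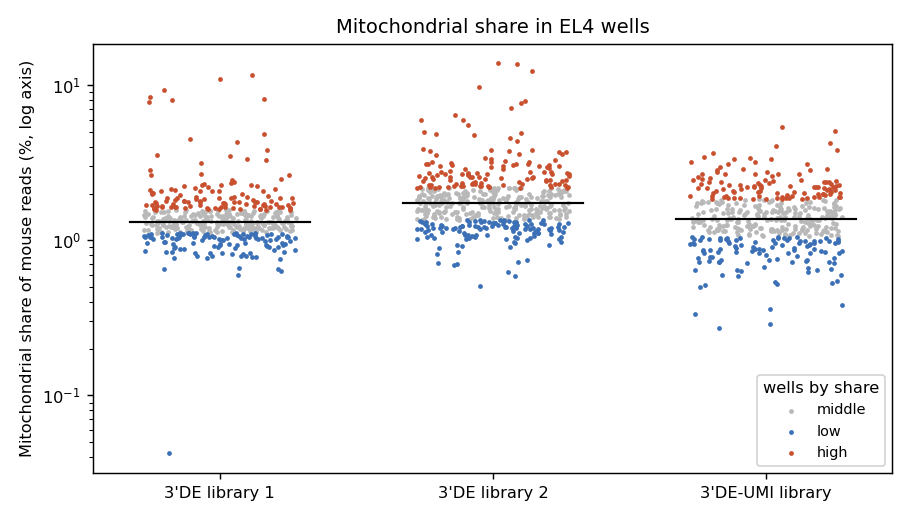
Mitochondrial share of mouse reads (percent, log axis) in each EL4 well of the 3 libraries. Each point is a well, coloured by group, and the black lines mark the medians of 1.30%, 1.74% and 1.38%.

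The share was carried by 5 of the 8 genes. ENSMUSG00000064370 held 41.7% of the reads of the 8 genes in 3'DE 1, 55.7% in 3'DE 2 and 66.5% in 3'DE-UMI. ENSMUSG00000064341 held 31.4%, 16.7% and 17.5%. ENSMUSG00000064351 held 12.2%, 11.1% and 6.27%. ENSMUSG00000064345 and ENSMUSG00000064363 held between 2.01% and 8.84%, and the other 3 genes held less than 0.08% each in every library. The mix of mitochondrial reads was thus not the same in the libraries.

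The carrying genes stood higher in high wells, as the choice of wells requires. The ratio of high to low wells for ENSMUSG00000064370 was 2.51 in 3'DE 1 and 2.88 in 3'DE 2, and it was higher again in 3'DE-UMI. For ENSMUSG00000064341 it was 1.87, 2.11 and 1.92. To see whether the genes vary together, wells were also ordered by the 7 genes without ENSMUSG00000064370. The median share of ENSMUSG00000064370 was then 0.437% in the lower and 0.715% in the upper 25% of 3'DE 1, 0.748% and 1.37% in 3'DE 2, and 0.747% and 1.17% in 3'DE-UMI. Ordered by ENSMUSG00000064370 alone, the upper 25% had 1.36, 1.67 and 1.51 times the share of the other 7 genes. Spearman's rho between both shares over wells was 0.49 (466 wells), 0.52 (493 wells) and 0.33 (433 wells). Both shares of a well have the same total, so the coefficients are a description.

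UMI counts gave a second reading of the same wells in 3'DE-UMI. The median share of UMIs on the 8 genes was 0.843% in low and 1.76% in high wells. The shares overlapped, from 0.345% to 1.41% in low wells and from 1.13% to 3.38% in high wells. The median well had 24.0 mitochondrial UMIs in the low and 41.5 in the high group. The same groups made from UMIs held 83 of the 108 low wells and 81 of the 108 high wells. Over all EL4 wells of this library the SD of the UMI share was 0.456 percentage points. The SD from counting error of UMIs alone was worked out for each well. It had a median of 0.210 and is larger in wells of few UMIs, so both values are not measured alike. Reads per UMI were 12.1 in low and 14.1 in high wells for the mitochondrial genes, and 11.7 and 11.0 for the other mouse genes.

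Median depth in the other genes was lower in high wells. The median number of reads on other mouse genes was 29756 in low and 23798.5 in high wells of 3'DE 1, 34652 and 30102 in 3'DE 2, and 30765 and 21167 in 3'DE-UMI. The median was lower in high wells in 3 of 3 libraries, though in 3'DE 2 the summed reads were higher in high wells (8744864 against 8366930). The medians differed by a mean of -0.35 ± 0.17 on the log2 scale (SD, n = 3 libraries), a ratio of 0.782. The interquartile ranges of high and low wells overlapped within each library. An exact two-sided sign-flip test over 3 libraries cannot give a p below 0.25, so none was run. With 1 in 3 wells taken at each end the mean was -0.23, with 1 library higher, and with all wells divided at the median it was -0.20. With wells of under 2% human reads it was 0.00302, with medians of 44105 and 77651.5 in 3'DE 2, where 72 wells per group were left. Mitochondrial reads themselves were more numerous in high wells, with medians of 282.5 and 483 in 3'DE 1, 405 and 953 in 3'DE 2, and 248 and 542.5 in 3'DE-UMI, which the choice of wells favours.

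Depth did not fall steadily with the share. Spearman's rho between share and other reads over EL4 wells was -0.23, -0.03 and -0.10, and both hold the same reads in part. The median human share of reads was 0.469% in low and 0.518% in high wells of 3'DE 1, 1.85% and 2.42% in 3'DE 2, and 0.352% and 0.487% in 3'DE-UMI. It was higher in high wells in 3 of 3 libraries, and its part in the results was not tested.

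The number of other mouse genes detected was close in both groups once depth was set equal. At all reads the medians were 3035 in low and 2739.5 in high wells of 3'DE 1, 2522 and 2566 in 3'DE 2, and 1253 and 1157.5 in 3'DE-UMI. After each well was thinned to 5000 reads they were 1633 and 1564, 1427 and 1463.5, and 935 and 888. The mean log2 ratio was -0.03 ± 0.06 (SD, n = 3 libraries), less than the spread between libraries. After thinning to 2000 reads the medians were 981 and 939.5, 908 and 902.5, and 697.5 and 661.5, lower in high wells in 3 of 3 libraries, with a mean of -0.05 ± 0.04 (SD, n = 3 libraries).

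**Figure D2:**
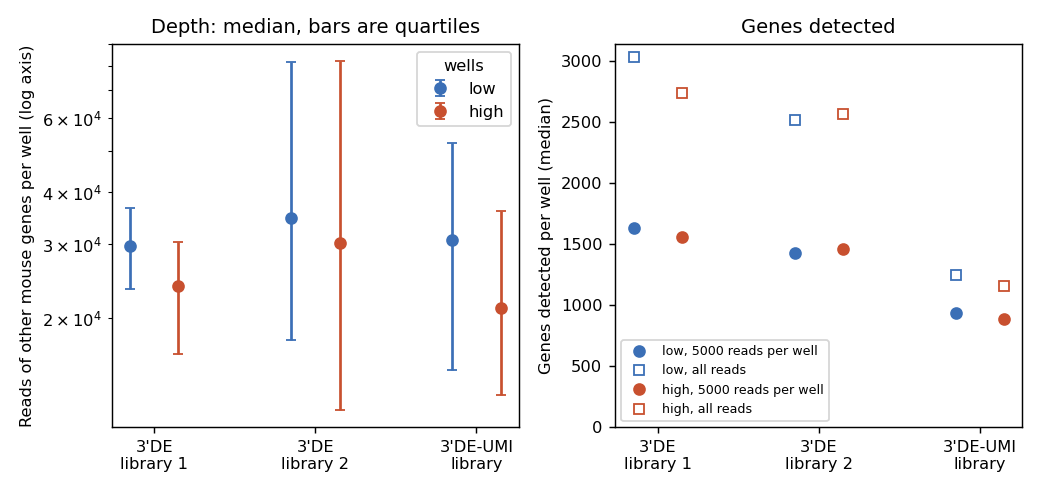
Reads of other mouse genes per well (left, log axis; points are medians, bars run from the lower to the upper quartile) and median genes detected per well (right) in low and high wells of the 3 libraries. Median depth is lower in high wells of each library, while the medians at 5000 reads per well are lower in high wells in 2 of 3 libraries.

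To ask which other genes go with the share, reads were summed over the wells of each group and library and compared with the library as a block. Of 9081 genes tested, 0 (0%) passed an adjusted p of 0.05 in edgeR's quasi-likelihood test, and the smallest adjusted p was 0.381. At an unadjusted p under 0.05 there were 635 genes (6.99%), of which 257 were higher and 378 lower in high wells. DESeq2 called 16 genes (0.176%), 7 higher (0.0771%) and 9 lower (0.0991%), and 8.69% had an unadjusted p under 0.05. The edgeR count moved when a library was left out: without 3'DE-UMI it was 55 of 9726 genes, 29 higher and 26 lower. Without 3'DE 1 or without 3'DE 2 it was 0. These fits leave fewer residual degrees of freedom than the main fit, so their counts are less certain. The same direction in all 3 libraries was seen for 2802 genes (30.9%), 1300 higher (14.3%) and 1502 lower (16.5%). The median absolute log2 change was 0.36, and 1279 genes (14.1%) had an absolute log2 change over 1.

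The identifiers below were chosen after their values were seen, as those of smallest p with 1 direction in all 3 libraries and at least 50 CPM. None passed in the main test, and DESeq2 called each of them. For the first, ENSMUSG00000064367, nothing is read from a test: its identifier falls between those of the 8 genes that set the share (ENSMUSG00000064341 to ENSMUSG00000064370), and the tables do not say whether it too is mitochondrial. For a mitochondrial mRNA a higher value in high wells would follow from the way the wells were ordered. It was at 663 CPM in low and 1228 CPM in high wells of 3'DE 1, at 757 and 1564 CPM in 3'DE 2, and at 377 and 620 CPM in 3'DE-UMI. Each high sum lay above the low sum of its own library, and the low sum of 3'DE 2 lay above the high sum of 3'DE-UMI. The log2 change was 0.88.

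ENSMUSG00000092341 was among the most abundant of the tested genes. It was at 9250 CPM in low and 13868 CPM in high wells of 3'DE 1, at 13111 and 18090 CPM in 3'DE 2, and at 10402 and 15827 CPM in 3'DE-UMI. High and low sums did not overlap on this scale, but on plain library totals the low sum of 3'DE 2 (13377 CPM) lay above the high sum of 3'DE 1 (12999 CPM). The log2 change was 0.55 (SE 0.09, edgeR adjusted p = 0.416).

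Lower values in high wells were seen for ENSMUSG00000029752 and ENSMUSG00000050708. ENSMUSG00000029752 was at 855 CPM in low and 566 CPM in high wells of 3'DE 1, at 559 and 341 CPM in 3'DE 2, and at 1089 and 572 CPM in 3'DE-UMI. The log2 change was -0.75 (SE 0.14, edgeR adjusted p = 0.525), and the ranges of low and high sums overlapped. ENSMUSG00000050708 was at 19838 and 16131 CPM, at 14882 and 9890 CPM, and at 6619 and 3819 CPM in the same order. Both values of 3'DE-UMI lay below all 3'DE values, and the log2 change was -0.56 (SE 0.11, edgeR adjusted p = 0.525).

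UMI counts of 3'DE-UMI had the same directions. They come from the same wells, and the direction of the reads in this library was part of the choice of genes. The values are therefore a description. ENSMUSG00000064367 had 137 UMIs in low and 168 in high wells, or 365 and 563 CPM of UMIs. ENSMUSG00000092341 had 7141 and 11629 CPM of UMIs. ENSMUSG00000029752 had 814 and 543 CPM of UMIs, and ENSMUSG00000050708 had 7029 and 4279.

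All EL4 wells were then divided into 4 groups by share, the middle wells giving groups 2 and 3. The order of groups 1 and 4 is fixed by the choice of the genes, so groups 2 and 3 alone add to the values above. On the scale of library totals, ENSMUSG00000064367 went from 624 to 720, 813 and 1151 CPM over the groups of 3'DE 1, from 773 to 883, 1018 and 1641 CPM in 3'DE 2, and from 365 to 372, 478 and 663 CPM in 3'DE-UMI. The limit given above for this gene holds here too. For ENSMUSG00000029752 groups 2 and 3 lay between groups 1 and 4, at 755 and 607 CPM in 3'DE 1, 477 and 407 CPM in 3'DE 2, and 926 and 772 CPM in 3'DE-UMI. ENSMUSG00000092341 was lower in group 2 than in group 1 and was highest in group 4 of each library. ENSMUSG00000050708 was slightly higher in group 2 than in group 1 of both 3'DE libraries, at 18791 against 18659 CPM in 3'DE 1 and 15377 against 15184 CPM in 3'DE 2. In 3'DE-UMI its groups 2 and 3, at 5447 and 5149 CPM, lay between groups 1 and 4.

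**Figure D3:**
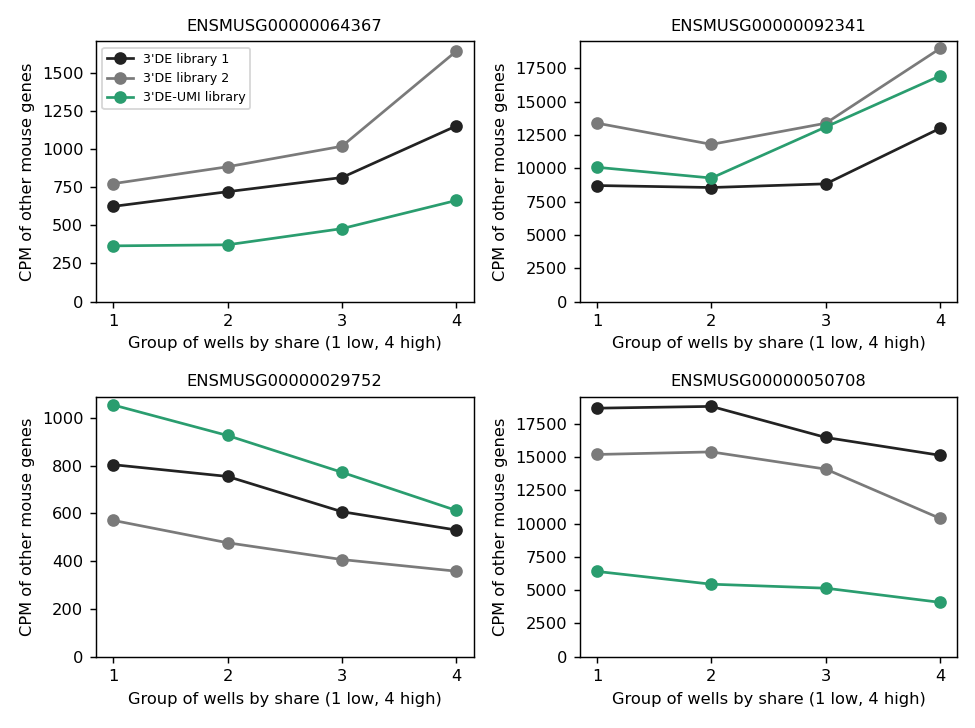
CPM of 4 genes (vertical axes from 0, scaled to the other mouse genes) in sums over 4 groups of EL4 wells by mitochondrial share, one line per library. The order of groups 1 and 4 was fixed by the choice of genes. Groups 2 and 3 of ENSMUSG00000029752 lie between them in all 3 libraries. Group 2 of ENSMUSG00000092341 lies below group 1 in each library, and group 2 of ENSMUSG00000050708 lies above group 1 in both 3'DE libraries.

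IVA12 wells, which took no part in choosing the genes, were divided in the same way. ENSMUSG00000092341 differed by 0.29 on the log2 scale. ENSMUSG00000029752 differed by -0.61 and ENSMUSG00000050708 by -0.53. Each of these 3 had 1 direction in all 3 libraries. The edgeR adjusted p, taken over all genes, was 0.879 for each, and the unadjusted edgeR p was 0.00479, 0.00993 and 0.00061. These wells come from the same libraries as the EL4 wells. ENSMUSG00000064367 differed by 0.71, with the same limit as in EL4 wells. Among all genes in IVA12 wells 0 of 8045 (0%) passed in edgeR, and 413 (5.13%) had an unadjusted p under 0.05. The difference between lines was tested directly: 0 of 10173 genes (0%) passed in edgeR, 395 (3.88%) had an unadjusted p under 0.05, and DESeq2 called 7. The adjusted p of the 3 genes for this difference was 1.

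Cell cycle genes were available by identifier from the mouse marker pairs of the scran package, and were grouped by the phase in which they are the higher of a pair. The G2/M group holds genes placed in this way in the phases before and during mitosis. Of 63 such genes 56 were tested, and the median log2 change was -0.22, against -0.01 for all genes tested. There were 12 higher and 44 lower in high wells. None of the 56 passed (0%), and 11 (19.6%) had an unadjusted p under 0.05, 1 higher and 10 lower, against 6.99% of all genes. A single direction in all 3 libraries was seen for 15 of the 56 genes, 2 higher and 13 lower, where the share of all genes was 30.9%. The median was -0.11 in 3'DE 1, -0.36 in 3'DE 2 and -0.43 in 3'DE-UMI.

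Summed over the group, G2/M genes were at 5090 CPM in low and 4335 CPM in high wells of 3'DE 1, at 5554 and 4405 CPM in 3'DE 2, and at 6119 and 5087 CPM in 3'DE-UMI. The sum was lower in high wells in 3 of 3 libraries. In IVA12 wells the sums were 5011 and 5131 CPM, 5072 and 6142 CPM, and 5895 and 5864 CPM, higher in high wells in 2 of 3 libraries. Their median log2 change was 0.10. In 3'DE 2 there were 57 IVA12 wells per group, with median other reads of 14420 in low and 42842 in high wells. The deepest 10% of these wells held 56.7% of the reads in the low and 38.5% in the high group. For EL4 wells of 3'DE 2 these values were 41.0% and 44.0%, so few wells weigh heavily in the sums of this library. The difference between lines was not tested for the group.

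Medians of G1 and S phase genes were closer to that of all genes. The 69 tested G1 genes had a median log2 change of 0.04, with 37 higher and 32 lower. The 58 tested S genes had a median of -0.04, with 27 higher and 31 lower. None passed in either group. An unadjusted p under 0.05 was seen for 3 G1 (4.35%) and 6 S genes (10.3%), against 6.99% of all genes. S genes summed to 4165 and 3568 CPM, to 4088 and 3982 CPM, and to 3665 and 4014 CPM in low and high wells of the 3 libraries, so the direction differed between libraries.

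**Figure D4:**
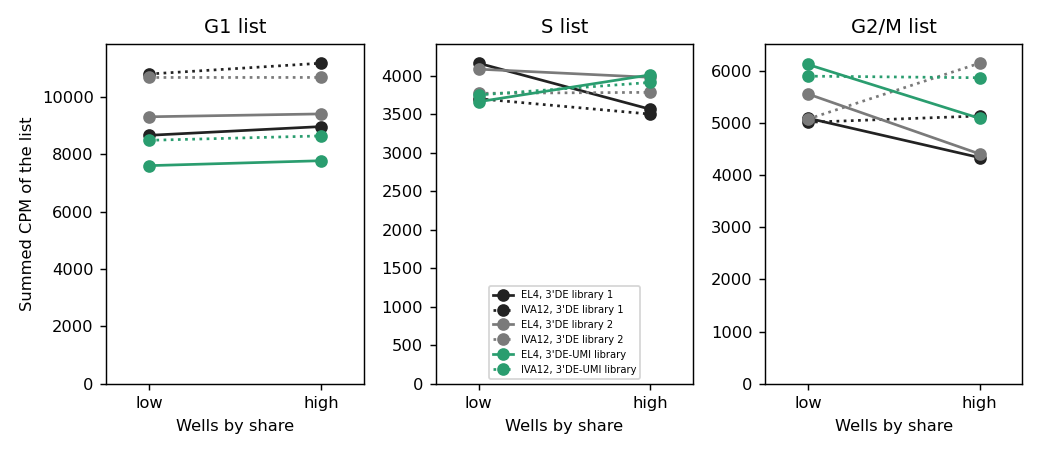
Summed CPM of genes grouped by cell cycle phase (axes from 0) in low and high wells, with solid lines for EL4 and dotted lines for IVA12 wells, one colour per library. The G2/M sum is lower in high than in low EL4 wells of the 3 libraries, for example 4405 against 5554 CPM in 3'DE 2.

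**Figure D5:**
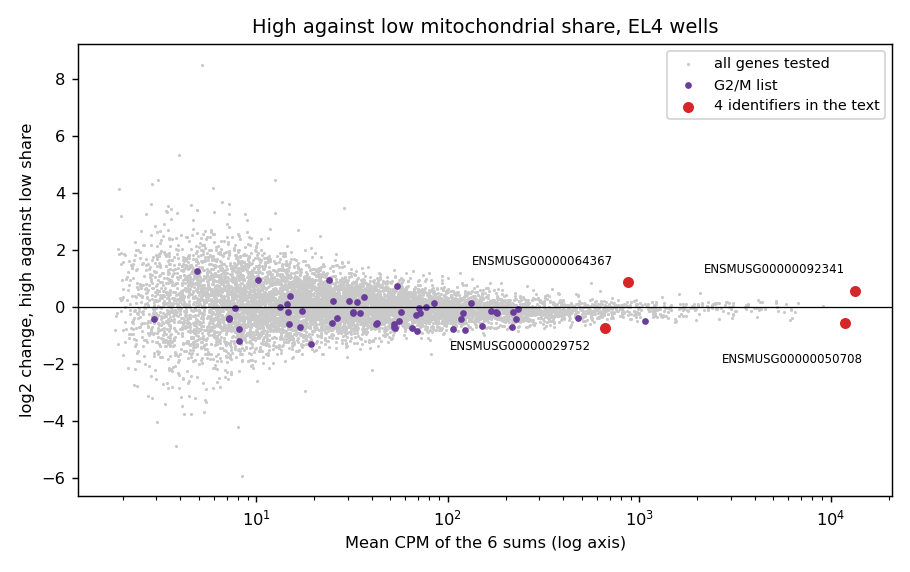
Log2 change between high and low EL4 wells against mean CPM of the 6 sums (log axis). Each point is 1 of 9081 genes, with the G2/M group in purple and the 4 named genes in red, and the spread of the changes narrows as the level rises.

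The protocols were compared by an interaction term of group and protocol. A larger change here means a more positive difference of high minus low wells, not a difference greater in size. With edgeR 590 of 9081 genes (6.5%) passed, 343 with a larger (3.78%) and 247 with a smaller change (2.72%) in 3'DE-UMI, and 21.2% had an unadjusted p under 0.05. With UMI counts in place of reads in that library 10 genes passed, and DESeq2 called 94. The 3'DE-UMI arm is 1 library, assumed to vary like the others, and 1 residual degree of freedom was left before the spread was pooled over genes. Of the 4 named genes none passed, and their adjusted p ran from 0.0914 to 0.774.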

How the data were processed

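The deposited tables hold read counts for each gene in each well barcode, which the authors made with the mappa software and STAR against hg19 (human) and mm10 (mouse) together, without scaling of the counts. The 3'DE-UMI library also has a deposited table of UMI counts. The submitters' processing notes name STAR 2.7.0b and 2.4.2a and Cell Ranger 1.2.0, which the methods give as the name of the combined reference. Per the methods, reads had been downsampled between samples before counting, which limits what depth says of a library. Species came from the identifier prefix. No doublet caller was run. Wells of 10% or more human reads were left out, and 2 mouse cells of 1 line in a well would not be seen. Reads are not independent molecules.

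Reads of mouse genes other than the 8 were summed per library and group, since wells are not replicates, giving 6 sums. These were tested with edgeR 4.0.16 (two-sided quasi-likelihood F-test after filterByExpr, scaling by TMM), with the library as a block because both groups come from the same library, and Benjamini-Hochberg adjustment over all genes tested. SEs were derived from the log2 change and the F value. No label says that the libraries came from separate cultures, so p-values measure the spread between libraries, which may be technical. CPM are on TMM-scaled totals in the fits and on plain totals in group sums, gate genes and the 4 groups. Interactions with protocol and with line (12 sums) used the same test. The code was tested on simulated data, where the main comparison made more false calls than its nominal rate. Counts of called genes between high and low wells may therefore be too high. The excess does not bear on the count of the interaction with protocol. True changes can also be missed, so a lack of called genes does not show that no gene differs. Alternatives used DESeq2 1.42.0, limma 3.58.1 on log2(CPM + 1), other scalings, filters, shares of wells and depths.

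The members and lists were chosen with earlier results of these data known. Named genes were to be those with the largest changes among those past the threshold, with 1 direction in 3 libraries and at least 50 CPM. None passed, so 4 identifiers were taken by p. Planned lists by symbol (respiratory chain, ribosome, stress and others) were not used, as no table here pairs mouse identifiers with symbols. The scran 1.30.0 lists, added later, hold genes that are higher in at least 80% of at least 5 marker pairs.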

Additional observations from a re-analysis of the deposited data

Results flagged for a closer look

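The change between high and low EL4 wells differed between the protocols for 590 of 9081 genes by the interaction test in edgeR, which is why it is listed here. The count was 94 with DESeq2, 92 after thinning each well to 5000 reads and 10 with UMI counts in the 3'DE-UMI library. In that library each UMI of other mouse genes stood for 11.7 reads in low and 11.0 reads in high wells. Among the genes of smallest p, the interaction term ran from -10.0 to 10.8 on the log2 scale, with -1.87 the smallest in size. Read levels of the called genes were not examined, and changes spread most in genes of few reads. The part of read duplication in the interaction calls was not tested. With 1 library of 3'DE-UMI the protocol and the library cannot be told apart.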

How the results depend on the processing

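The count of genes that differed between high and low EL4 wells was 0 of 9081. Among as many genes it was 16 with DESeq2, 2 with library totals, and 7 with limma and equal weight of wells. With no filter it was 29 of 14879, and with UMI counts 12 of 8879. Other settings, in which fewer genes were tested, were chosen after seeing the data. At 100 CPM or more 6 of 1649 genes passed, 5 higher and 1 lower in high wells. At 500 CPM or more 37 of 348 passed, 10 higher and 27 lower. Leaving out 1 library gave 0 to 55, with 9726 genes tested where it was 55. High and low wells are paired by library, and without the replicate block the count was also 0. The protocol count of 590 was 94 with DESeq2, 92 in thinned wells, 153 in wells of at least 5000 reads, 10 with UMI counts and 196 at an adjusted p of 0.01. The line count of 0 was 7 with DESeq2, 8 with no filter and 2 with UMI counts. The log2 ratio of depth was -0.35, and it was 0.0248 in groups made within depth bins, which sets depth equal by construction, and 0.00302 with under 2% human reads. It was -0.23 with 1 in 3 wells at each end, -0.20 with all wells divided at the median, and -0.43 to -0.26 with 1 library left out. Other causes were not tested.

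The 4 named genes kept their direction in 20 of 20 alternatives. These alternatives reuse wells from which the genes were chosen, and the setting of an adjusted p of 0.01 is the main fit itself. Their direction was thus close to fixed by the choice of genes and is given as a description. ENSMUSG00000092341 passed in 7, and ENSMUSG00000029752 and ENSMUSG00000050708 in 5 each. The G2/M median was below 0 in 19 of 19 alternatives, from -0.34 to -0.09. These too reuse wells of the same libraries and include the main fit itself, so they are a description. Ordering wells by all mitochondrial mRNAs was not run, since the tables do not mark them, and leaving out a library leaves no residual degrees of freedom for the protocol test, so no such test was made. Low counts limit genes of few reads, whose changes spread most.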
